A study of Mus musculus with 4 samples.

Results

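The cells described here are the endothelial cells of day 6 gastruloids, which are aggregates of mouse embryonic stem cells (mESCs) that self-organize into tissues of the early embryo. They were chosen by transcripts. A day 6 cell with at least 2000 unique molecular identifiers (UMIs, each standing for 1 captured transcript) and a mitochondrial share under 20% was taken when it held at least 1 UMI of 3 or more of the 6 endothelial genes *Cdh5*, *Pecam1*, *Tie1*, *Esam*, *Emcn* and *Tek*. It also had to hold fewer than 3 UMIs of the pluripotency gene *Pou5f1*. Of 6628 day 6 cells, 5850 met the quality limits and 491 of those met the rule, which is 8.39% (exact 95% binomial interval 7.69 to 9.13). They were compared with the other 5359 cells of the same day.

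All gastruloids were of the wild-type mESC line Zx1. All had received a pulse of the Wnt agonist Chiron before the first sampled day and cardiogenic factors (bFGF, VEGF and ascorbic acid) from day 4, so that the day 5 and day 6 cells were collected while VEGF, a growth factor for endothelium, was in the medium, and the day 11 cells after it had been withdrawn. Single-cell RNA-sequencing (scRNA-seq) was performed on days 4, 5, 6 and 11 with 1 library per day, made from a pool of gastruloids. A gastruloid has no blood circulation, no untreated arm was analysed here, and cells of 1 library are not replicates, so no difference below has a test or a replicate check.

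Endothelial cells line blood vessels and the inside of the heart, where they are called endocardium. In the mouse embryo the first of them arise from mesoderm under the ETS-family transcription factor *Etv2*, and they then take on arterial, venous, lymphatic, endocardial or blood-forming (haemogenic) properties. VEGF acts on them through the receptors encoded by *Kdr* and *Flt1*, angiopoietins act through *Tek* and *Tie1*, and VE-cadherin, encoded by *Cdh5*, holds their junctions together.

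ETS factors bind DNA around the letters GGAA, so the promoters of the 20 genes with the largest ratio between the endothelial cells and the other day 6 cells were read for 2 longer forms, AGGAAG and CCGGAAG, on both strands. The letters GGAAG are common to both forms, and no stretch can be counted under both. RefSeq's promoter table for build GRCm38.p6 held 14 promoters of 11 of these genes, here cut to the 250 bases before the start of transcription. AGGAAG stood in at least 1 promoter of 10 of the 11 genes (90.9%), and in 32.3% of the 27025 genes of the whole table. Of the 8175 genes that were both tested below and listed there, 31.3% held it. CCGGAAG stood in 0 of the 11 genes, in 7.83% of all genes and in 17.2% of the tested ones. The 20 genes include 5 genes of the rule, of which *Emcn* and *Tie1* are among the 11. Outside the rule AGGAAG stood in 8 of 9 genes (88.9%). *Cldn5* was the 1 gene of the 11 without AGGAAG. A match in these letters is a description of the sequence and does not show binding. The 3 promoters with the most matches are shown, so they were chosen by the letters that were counted. They are *Emcn*, which encodes the surface sialomucin endomucin and is a gene of the rule, *Gmfg*, which encodes a regulator of the actin cytoskeleton, and *Flt1*, which encodes VEGF receptor 1. Capitals mark AGGAAG or, where it lies on the other strand, CTTCCT, and each sequence runs 5′ to 3′ along the gene's own strand and ends at the base before the start. In *Emcn* (chr3:137340828-137341077, plus strand) the matches begin 174 and 93 bases before the start, in *Gmfg* (chr7:28440687-28440936, plus strand) 63 and 59 bases before it, where they overlap, and in *Flt1* (chr5:147726012-147726261, minus strand) 129 and 53 bases before it.
Emcn: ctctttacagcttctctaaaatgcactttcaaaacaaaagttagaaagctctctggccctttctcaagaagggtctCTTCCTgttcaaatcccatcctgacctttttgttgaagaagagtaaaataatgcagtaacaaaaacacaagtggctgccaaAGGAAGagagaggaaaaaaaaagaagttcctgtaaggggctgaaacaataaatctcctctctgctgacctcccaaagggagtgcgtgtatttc
Gmfg: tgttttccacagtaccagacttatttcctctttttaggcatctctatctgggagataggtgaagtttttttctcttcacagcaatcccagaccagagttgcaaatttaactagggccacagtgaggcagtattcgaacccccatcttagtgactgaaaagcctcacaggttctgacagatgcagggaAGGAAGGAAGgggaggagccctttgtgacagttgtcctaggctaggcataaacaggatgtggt
Flt1: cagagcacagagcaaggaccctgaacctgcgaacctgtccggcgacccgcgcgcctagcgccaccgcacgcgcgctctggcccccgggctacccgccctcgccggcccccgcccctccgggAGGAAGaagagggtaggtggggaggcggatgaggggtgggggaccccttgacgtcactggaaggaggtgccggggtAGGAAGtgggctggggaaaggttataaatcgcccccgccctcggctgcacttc

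The 4 libraries held 7324, 7794, 6628 and 9584 cells in order of day, and the day 6 library held 182150138 UMIs. The endothelial cells of day 6 were deeper than the rest, with a median of 38714 UMIs per cell (3156 to 186730) against 24916. Between 5 and 19 cell barcodes of day 6 also occurred in each of the other libraries, and 1, 3 and 2 of them were among the 491 cells. Transcripts free in the suspension give UMIs to cells that do not make them, so shares of cells were also computed in 464 neural cells of day 6, which had a median of 39515 UMIs. After every cell had been thinned to 10000 UMIs, 0.649% of those neural cells held a UMI of the median gene among 14 endothelial genes used as a check. Values below are UMIs of a gene per 1000000 UMIs of the summed cells (CPM). Intervals are exact, at 95%, and cover counting error only.

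The label of the cells was checked with 14 endothelial genes that the rule had not used, namely *Flt1*, *Kdr*, *Cldn5*, *Egfl7*, *Erg*, *Fli1*, *Sox7*, *Sox17*, *Sox18*, *Icam2*, *Cd34*, *Ramp2*, *Clec14a* and *Plvap*. The endothelial cells held a median of 12 of them (3 to 14) and the other cells a median of 2 (0 to 13). At least 10 of the 14 were found in 433 of the 491 cells (88.2%) and in 5 of the 5359 other cells. None of the 14 was found in 755 other cells and in 0 of the 491. The name endothelium therefore holds for the cells as a set. Within the set it holds less evenly, since the 28 cells with 3 of the 6 genes of the rule held a median of 7 check genes, the 24 cells with 4 a median of 11, the 100 with 5 a median of 12 and the 339 with all 6 a median of 13. The 94 cells just outside, with 2 of the 6 genes, held a median of 3.

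**Figure D1:**
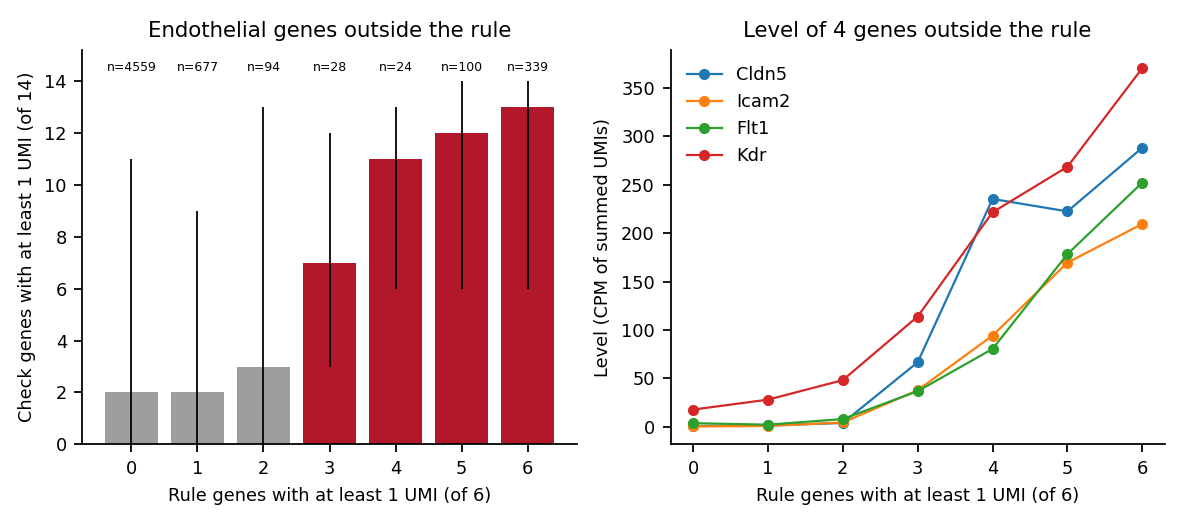
Day 6 cells by how many of the 6 genes of the rule they held (horizontal axes, cells with fewer than 3 *Pou5f1* UMIs). Left, number of the 14 check genes per cell, with bars at the median and lines from the lowest to the highest cell; right, level in CPM of *Cldn5*, *Icam2*, *Flt1* and *Kdr* in the summed cells. The median goes from 3 check genes at 2 of 6 to 13 at 6 of 6, and *Cldn5* from 3.80 to 288 CPM.

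At the edge of the rule, cells with 3 of the 6 genes held *Cldn5*, the tight-junction claudin of endothelium, at 66.6 CPM, and cells with 2 of them at 3.80 CPM. *Kdr*, which encodes VEGF receptor 2, stood at 114 and 48.1 CPM and *Ctla2a*, a cysteine protease inhibitor, at 182 and 40.2 CPM. Cells just inside the rule also carried transcripts of other mesoderm, with the transcription factor gene *Hand1* at 166 CPM and the atrial myosin light chain gene *Myl7* at 1014 CPM. In cells with all 6 genes these were at 12.7 and 461 CPM. 1 cell with enough of the 6 genes was left out for its *Pou5f1* UMIs.

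Of the 491 cells, 102 (20.8%) were among the 8% of day 6 cells with the highest doublet score, against 6.83% of the other cells. A doublet score is high where a profile resembles the sum of 2 different cells. Separately, 65 of the 491 (13.2%) held at least 10 UMIs of cardiomyocyte markers other than *Myl7*, or at least 5 of neural or of endoderm markers, and are called mixed cells below. These limits were not scaled to depth. Of the other cells, which include cardiomyocyte, neural and endoderm cells, 2050 (38.3%) met them. Many of the values that move much without the mixed cells or the cells of high doublet score, but not all, are given below with and without them. Whether these endothelial cells are doublets, cells with 2 programmes or cells with free RNA was not tested.

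The endothelial cells were compared with the rest of the gastruloid gene by gene. A gene was tested when it had at least 5 CPM in either set, and called when its CPM plus 5 differed by at least 2-fold. Of 10298 genes tested, 620 were called higher (6.02%) and 350 lower (3.40%). Since the cells were chosen by transcripts of the same library, these values describe them and support nothing beyond that.

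Outside the rule, *Ctla2a* had the largest ratio of CPM plus 5. It stood at 606 CPM in the endothelial cells and 2.51 in the others, 241 times higher in CPM alone (218 to 267). *Ecscr*, an endothelial surface protein gene, stood at 359 and 2.61 CPM, and the adhesion molecule gene *Icam2* at 191 and 0.399 CPM. *Cldn5* stood at 265 and 0.867 CPM, 306 times higher (258 to 365). Each of these 4 was found in 70.1% to 88.8% of the thinned endothelial cells, in 0.271% to 1.86% of the other cells and in 0.216% to 1.95% of the neural cells. *Igf1*, a growth factor gene, stood at 187 and 1.38 CPM. *Cd93*, a C-type lectin-like receptor gene, was at 106 and 0.171 CPM, 620 times higher (425 to 942). *Stab1*, a scavenger receptor gene, stood at 106 and 0.544 CPM. The other leading genes were *Sox18* (156 and 0.842 CPM), *Gmfg* (218 and 3.22), *Flt1* (223 and 3.45), the small GTPase regulator *Rasip1* (154.7 and 1.63) and *Plvap* (325 and 10.8), which encodes the diaphragm protein of endothelial pores. All 12 stayed above 2-fold under the 15 other settings tried.

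Among the 12 genes furthest below the other cells, *Gpc3*, a glypican that binds growth factors, stood at 79.2 CPM against 425, 5.37 times lower (5.13 to 5.63). *Ptn*, which encodes the growth factor pleiotrophin, stood at 126 against 645 CPM. *Vcan*, the matrix proteoglycan versican, stood at 38.6 against 204 CPM, and *Sfrp1*, a secreted Wnt antagonist, at 31.3 against 166 CPM. These 4 genes were broadly used by the rest of the gastruloid, being found in 57.6% to 91.0% of the other thinned cells and in 11.6% to 27.8% of the endothelial ones. The keratin genes *Krt8* and *Krt18* stood at 17.3 and 12.5 CPM against 85.6 and 66.0. *Cdo1* (13.0 against 81.9), *Mab21l2* (6.28 against 41.7), *Alx1* (11.6 against 63.9) and *Rbp4* (2.66 against 30.9) completed the lower end with 2 genes of rare cells. The levels of the lower genes depended on the doubted cells. Without the cells of high doublet score *Gpc3* stood at 27.9 CPM, *Ptn* at 30.9, *Vcan* at 11.6, *Sfrp1* at 9.36 and *Krt18* at 2.66, and without the mixed cells at 51.3, 99.9, 15.8, 14.8 and 5.01. *Krt8*, *Cdo1*, *Mab21l2*, *Alx1* and *Rbp4* stood at 4.94, 7.47, 3.31, 2.53 and 0.260 CPM without the cells of high doublet score and at 9.84, 6.98, 1.98, 7.68 and 1.05 without the mixed cells. The log2 ratio of *Gpc3* on CPM plus 5, −2.35 with all cells, was −3.74 and −2.93 in the same order and −3.87 without subgroup 3. *Dppa5a*, a pluripotency gene, stood at 0.479 against 43.4 CPM but was held by 2.71% of the other cells. Its log2 ratio of −3.14 rested on the *Pou5f1* limit, as it was −1.41 with the 1 cell that the limit had left out, and it came to −0.47, below 2-fold, when cells were thinned before the rule was applied. The embryonic globin gene *Hba-x* stood at 0.785 against 26.5 CPM and was held by 2.89%.

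**Figure D2:**
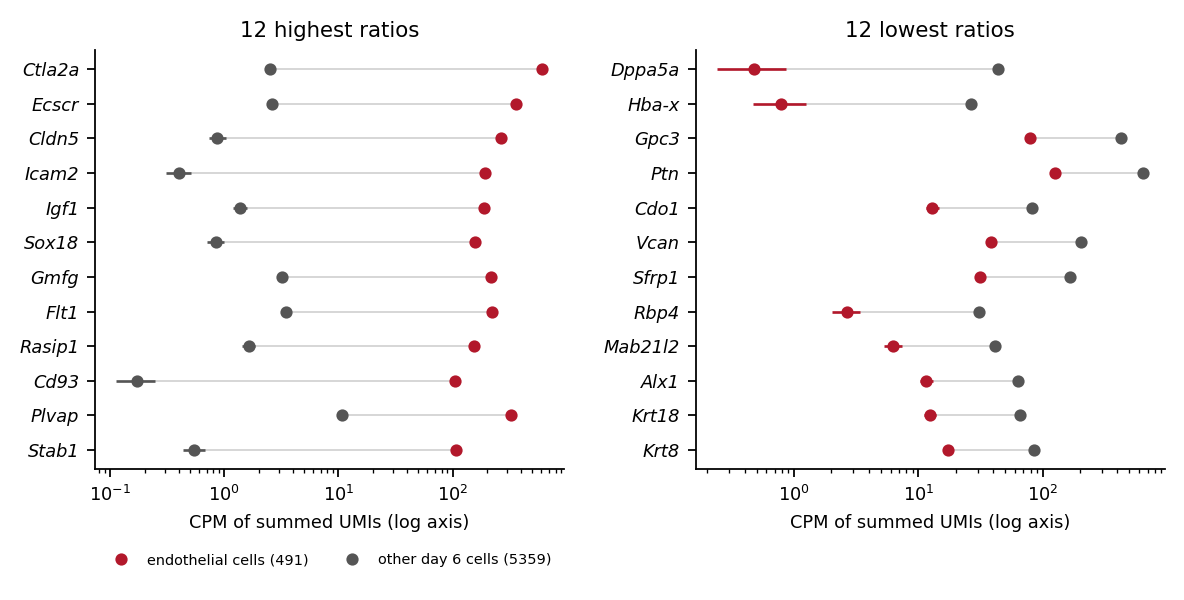
Level in CPM (log axis) of the 12 genes with the highest and the 12 with the lowest ratio in the 491 endothelial cells and the 5359 other cells of day 6, with exact Poisson intervals. *Ctla2a* stands at 606 against 2.51 CPM at the top, and *Dppa5a* at 0.479 against 43.4 CPM at the bottom.

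The 6 genes of the rule are given as a description only. In the endothelial cells *Cdh5* stood at 305 CPM and was found in 95.9% of cells, *Pecam1*, a junctional adhesion molecule gene, at 140 CPM in 94.3%, and *Esam* at 158 CPM in 94.7%. *Tie1* stood at 114 CPM in 91.9%, *Tek*, the angiopoietin receptor gene, at 84.6 CPM in 88.4%, and *Emcn* at 194 CPM in 87.6%. In the other cells the 6 genes ranged from 0.253 to 2.59 CPM.

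Endothelial transcription factors were higher as a group. Of 20 listed genes, 18 were called higher and 0 lower, with a median log2 ratio of 2.91 beside −0.09 over all genes tested. The SOX F genes, which act in arterial and lymphatic vessels, stood at 63.2 against 0.443 CPM (*Sox7*), 144 against 4.20 CPM (*Sox17*) and 156 against 0.842 CPM (*Sox18*). *Sox17* was not particular to endothelium, since 38.0% of 100 thinned endoderm cells of day 6 also held it. Among the ETS genes *Erg* stood at 35.0 against 0.291 CPM, *Fli1* at 74.7 against 3.80 and *Etv2* at 32.9 against 5.21, the last found in 19.7% of thinned endothelial cells. *Tal1* and *Lyl1*, which serve blood and vessel precursors, stood at 24.1 against 0.785 and 36.0 against 0.462 CPM. *Klf2*, which responds to blood flow in vessels, stood at 141 against 7.06 CPM. These cells had no circulation, but the gastruloids were shaken in culture from day 4. Whether shaking bears on the level of *Klf2* was not tested. *Nfatc1*, needed in endocardium for valve growth, stood at 43.8 against 1.15 CPM. The 2 genes between the limits were *Klf4* (9.76 against 3.80) and *Tbx20* (21.1 against 25.3 CPM).

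Receptors for VEGF were higher and its ligands were not. *Kdr* stood at 336 against 19.7 CPM (17.01 times, 16.3 to 17.7) and was found in 85.9% of thinned endothelial cells and 13.9% of the others. *Flt1* and the VEGF-C receptor gene *Flt4* stood at 223 against 3.45 and 42.6 against 0.437 CPM. The co-receptor gene *Nrp2* passed 2-fold (104 against 17.8 CPM) and *Nrp1* did not (97.0 against 51.4). Of the ligands, *Vegfa* (35.2 against 50.2 CPM), *Vegfb* (90.5 against 133) and *Vegfc* (44.1 against 32.6) lay between the limits and *Pgf*, the placental growth factor gene, was called lower (3.53 against 19.3). In all, 4 of the 10 genes were called higher and 1 lower.

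In the angiopoietin pathway, whose receptor genes *Tek* and *Tie1* belong to the rule, the phosphatase gene *Ptprb* (VE-PTP) stood at 48.1 against 0.146 CPM. The ligand gene *Angpt1* was called lower at 4.88 against 30.4 CPM, and *Angpt2* stood at 3.44 against 5.87. Without mixed cells *Angpt1* stood at 3.14 CPM, and without the cells of high doublet score at 2.08. Of the 5 genes listed outside the receptors, 3 could be tested.

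Genes of junctions and the cell surface had a median log2 ratio of 3.62, with 21 of 25 called higher and 0 lower. *Ramp2* and *Calcrl*, which together make the adrenomedullin receptor, stood at 879 against 48.6 and 117 against 4.89 CPM. *Eng*, a co-receptor for BMP and TGF-β, stood at 128 against 3.27 CPM and *Egfl7*, a matrix protein gene of vessels, at 510 against 50.8. *Egfl7* and *Ramp2* were also found in 18.0% and 11.0% of the thinned neural cells, so their transcripts outside endothelium were above the median background. *Cd34* stood at 87.0 against 1.12 CPM, *Clec14a* at 65.8 against 0.481 and *Cav1*, the caveola protein gene, at 63.5 against 0.519. *Vwf*, the von Willebrand factor gene, stood at 17.8 against 0.601 CPM and was found in 14.5% of thinned cells. *Podxl* (18.7 against 9.70 CPM) and *Jam3* (32.3 against 44.3) lay between the limits, and *Ocln* and *Jam2* were too low to be tested.

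Arterial and venous genes were both present. Of 14 arterial and Notch genes, 6 were called higher and 0 lower. *Dll4*, the Notch ligand of arteries, stood at 23.3 against 0.101 CPM, the connexin genes *Gja4* and *Gja5* at 76.6 against 1.35 and 5.75 against 0.0696, and the receptor genes *Notch1* and *Notch4* at 115 against 18.4 and 22.7 against 2.85. *Efnb2*, the arterial ephrin gene, passed 2-fold narrowly at 70.3 against 32.4 CPM. Notch targets did not pass, with *Hey1* at 51.1 against 32.6 CPM, *Hey2* at 5.10 against 6.81 and *Hes1* at 58.0 against 70.5. Of 9 venous and lymphatic genes 6 were called higher, among them *Ephb4*, the venous ephrin receptor gene (57.1 against 17.01 CPM), *Aplnr*, the apelin receptor gene (27.7 against 1.13), and *Dab2* (62.3 against 9.53). *Nr2f2*, the venous transcription factor gene, stood at 115 CPM in endothelial cells and 139 in the others, and the lymphatic genes *Prox1* and *Pdpn* at 9.15 against 6.66 and 2.27 against 8.52. *Pdpn* was at 0.757 CPM in the endothelial cells without mixed cells and 0.390 without the cells of high doublet score. *Lyve1* and *Stab2*, of lymphatic and sinusoidal endothelium, were called higher at 7.80 against 0.139 and 5.97 against 0.0253 CPM, each in under 5% of thinned cells.

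Endocardial genes were among the higher ones, with 6 of 10 called higher and 2 lower. *Npr3*, a natriuretic peptide receptor gene used as an endocardial marker, stood at 86.1 against 2.49 CPM (34.6 times, 31.1 to 38.7) and was found in 48.1% of thinned endothelial cells. *Hapln1*, which links hyaluronan in cardiac jelly, stood at 263 against 29.1 CPM and was found in 73.0%. *Nrg1*, the neuregulin signal from endocardium to heart muscle, stood at 39.9 against 4.31 CPM and *Tmem100* at 73.2 against 5.06. The cardiac transcription factor genes *Gata4* and *Gata6* lay between the limits at 26.5 against 34.8 and 107 against 173 CPM. *Gata5* and *Cdh11* were called lower, at 19.7 against 48.8 and 11.4 against 36.2 CPM.

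Blood genes were few. Of 21 listed, 5 could be tested, of which *Itga2b* (17.1 against 0.892 CPM) and *Kit* (45.4 against 7.51) were called higher and *Hba-x* lower. *Itga2b* and *Kit* are surface genes of early blood progenitors that endothelium can share. The other 2 lay between the limits, namely the embryonic globin gene *Hbb-y* (6.06 against 1.74 CPM) and the immune receptor subunit gene *Fcer1g* (5.01 against 0.766). *Runx1*, the transcription factor of the endothelial-to-blood transition, stood at 3.92 against 1.66 CPM and *Spi1*, of the myeloid lineage, at 3.44 against 0.335. *Gata1* and the pan-leukocyte gene *Ptprc* had 0 UMIs among 22943687, which allows up to 0.131 CPM.

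In the BMP and TGF-β pathway the endothelial receptor gene *Acvrl1* (ALK1) stood at 37.8 against 1.08 CPM, *Tgfbr2* at 67.3 against 3.17 and the ligand gene *Tgfb1* at 123 against 19.96. The ligand genes *Bmp2* and *Bmp4* were called lower, at 8.85 against 23.6 and 18.1 against 59.2 CPM. Without mixed cells they stood at 6.17 and 10.5 CPM, and without the cells of high doublet score at 6.24 and 13.8. The target genes *Id1*, *Id2* and *Id3* lay between the limits, at 247, 220 and 526 CPM against 335, 384 and 590. Of the 16 genes of the list, 3 were called higher and 2 lower.

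Basement membrane genes were higher in 10 of 18 cases and lower in 0. The collagen IV genes *Col4a1* and *Col4a2* stood at 291 against 44.6 and 152 against 20.6 CPM, the laminin gene *Lama4* at 43.2 against 2.76, and *Hspg2* (perlecan) and *Nid1* at 136 against 15.1 and 106 against 13.3. *Fn1*, the fibronectin gene, stood at 477 against 161 CPM. *Itga6* passed 2-fold at 109 against 43.7 CPM and *Itgb1*, a broad integrin subunit gene, did not at 183 against 143.

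Genes of vessel sprouting and of small GTPases in vessels were called higher in 12 of 14 cases, of which *Tie1* is a gene of the rule, so that its call was fixed by the choice of cells. *Plxnd1*, the semaphorin receptor gene that guides vessels, stood at 168 against 5.93 CPM, and *Rhoj* and *Arap3* at 94.4 against 3.51 and 81.8 against 2.11. The tip-cell genes *Esm1*, *Kcne3* and *Pdgfb* were at 14.5 against 0.0316, 64.5 against 0.228 and 16.2 against 0.158 CPM. *Apln*, another tip-cell gene, was too low to be tested, at 2.83 against 1.66 CPM. Among the vasoactive genes, *Nos3*, the endothelial nitric oxide synthase gene, stood at 39.4 against 1.23 CPM and the endothelin receptor gene *Ednrb* at 69.9 against 14.3. *Gucy1b1*, a subunit of the nitric oxide receptor of muscle cells, was called lower at 3.18 against 14.5 CPM. In that list 4 of 10 genes were higher and 1 lower, and 3 were lower without the cells of high doublet score.

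No gene of glycolysis was called in either direction among 16 tested, with a median log2 ratio of −0.41, and 1 was called lower without the cells of high doublet score. The glucose transporter gene *Slc2a1* stood at 221 against 162 CPM and *Ldha* at 1805 against 2404. Of 16 cell cycle genes 1 was called lower, the cyclin gene *Ccnd2* (115 against 263 CPM), and 4 were called lower without the cells of high doublet score. *Mki67* and *Top2a* stood at 82.1 against 129 and 214 against 374.

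**Figure D3:**
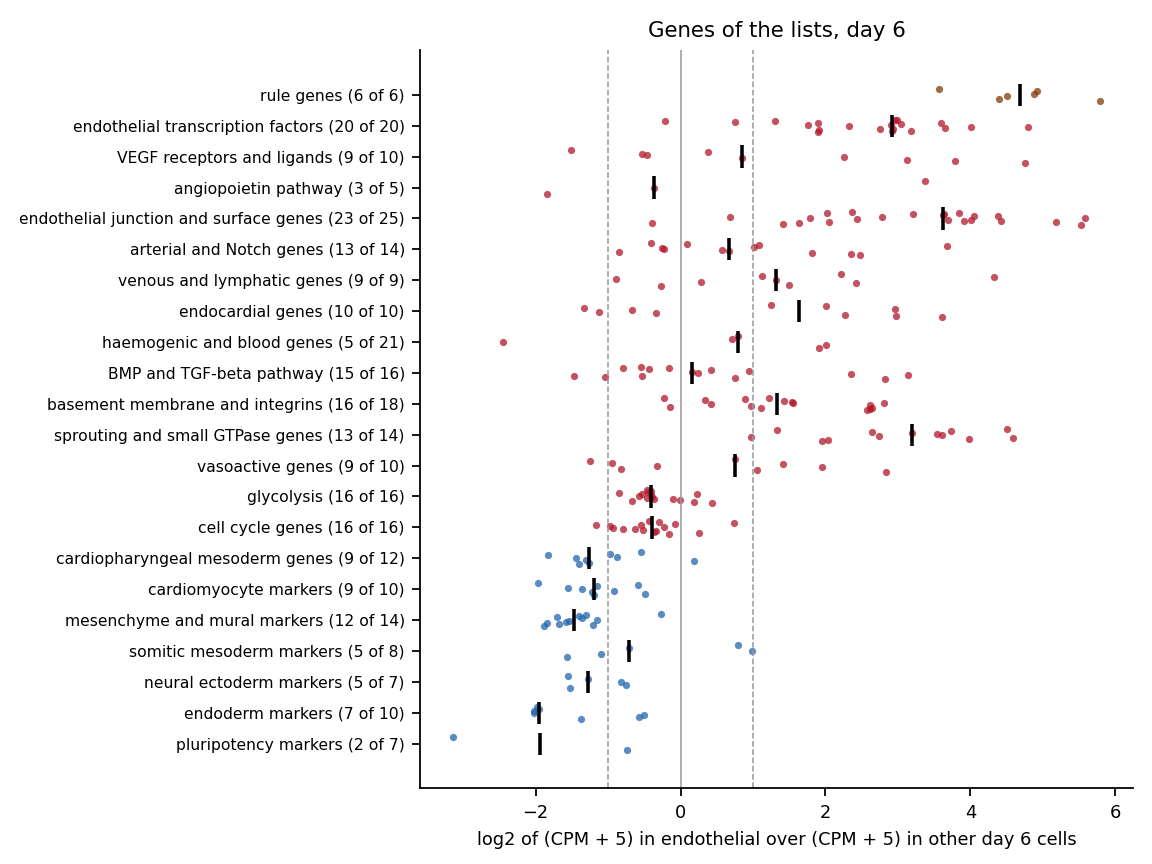
Log2 ratio of CPM plus 5 between endothelial and other day 6 cells (horizontal axis) for every listed gene that could be tested, by list; black bars give list medians and dashed lines 2-fold. Genes of the rule are brown, lists of endothelium, signalling and metabolism red and lists of other cell types blue. Medians of the red lists run from 3.62 for junction and surface genes to −0.41 for glycolysis, and no gene of a blue list lies above 2-fold with all cells kept.

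Over the 14 lists of endothelium, signalling and metabolism, 93 of 177 genes tested were called higher, *Tie1* of the rule among them, and 9 lower. Over the 7 lists of markers of other cells, 0 of 49 tested were higher and 33 lower. With all cells kept, summed cardiomyocyte markers stood at 1132 CPM in the endothelial cells and 2814 in the others, mesenchyme and mural markers at 399 and 1223, endoderm markers at 54.2 and 254, and neural markers at 29.1 and 110. Without the 65 mixed cells the first sum was 51.2 CPM, and without the 102 cells of high doublet score it was 257. Mesenchyme markers came to 182 and 168.98 CPM in the same order, endoderm markers to 16.6 and 8.90 and neural markers to 2.62 and 5.59. Leaving out the cells of high doublet score moved the lower calls from 6 to 9 of the 9 cardiomyocyte markers tested, from 3 to 5 of the neural and from 5 to 7 of the endoderm markers, and the higher calls among VEGF genes from 4 to 5. It gave 1 lower call each in the arterial and the venous list, where there had been 0, and 1 somitic marker called higher, *Tcf15*, with a log2 ratio of 1.19 on CPM plus 5. *Myl7* was found in 23.9% of the thinned endothelial cells, beside 18.4% of the neural and 27.0% of the endoderm cells, which should lack it. Median depths of these sets were 38714, 39515 and 45201 UMIs. *Tcf15* and *Foxc2*, listed as somitic genes, lay between the limits at 36.8 against 16.2 and 32.3 against 16.5 CPM. *Dcn* and the pluripotency genes *Nanog*, *Dppa3*, *Utf1* and *Esrrb* had 0 UMIs in the endothelial cells.

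The endothelial cells were not uniform. Clustering of the 491 cells gave 5 subgroups of 107, 106, 105, 103 and 70 cells. They are described by their leading genes, which formed them and are therefore no finding, and by the other gene groups.

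Subgroup 1 (107 cells) was led by *Alox5ap*, of leukotriene synthesis, at 36.6 CPM against 4.04 in the other endothelial cells. *Procr*, the protein C receptor gene, stood at 88.2 against 16.1 CPM, *Fcer1g*, a signalling subunit of immune receptors, at 21.5 against 1.38, *Lyve1* at 27.0 against 3.56 and *Fmo1* at 98.1 against 24.7. The few transcripts of blood transcription factors lay mainly here, with *Runx1* at 13.98 and *Spi1* at 14.9 CPM beside 0 to 2.64 in the other subgroups. *Cdh5* (510 CPM) and *Calcrl* (224 CPM) were also higher in it than in the other 4. It held 0 cells of high doublet score and 1 mixed cell.

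Subgroup 2 (106 cells) was led by *Kcne3*, a potassium channel subunit gene, at 213 against 23.2 CPM, *Tmem255a* (98.4 against 11.3), *Arhgap18* (165 against 26.0), *Depp1* (77.7 against 10.7) and *Esm1* (48.2 against 5.18). *Cd34* stood at 234 CPM, with 36.1 to 60.7 in subgroups 1, 4 and 5, and the apelin gene *Apln* at 8.83 CPM beside 0 to 2.34 elsewhere. The arterial genes *Dll4* and *Hey1* stood at 49.6 and 108 CPM there, while *Gja4* (93.1 CPM), *Notch1* (118) and *Efnb2* (72.1) were lower than in subgroup 1 (122, 154 and 107). All arterial and Notch genes summed to 690 CPM in subgroup 2 and 621 in subgroup 1. It held 5 cells of high doublet score and 4 mixed cells. *Npr3* and *Nfatc1* were at 45.6 and 19.3 CPM, below subgroups 1, 4 and 5, and *Id1* and *Id2* at 69.2 and 53.2 CPM were the lowest of the 5. *Slc2a1* and *Pfkp* were at 338 and 104 CPM, and the summed glycolysis genes at 15316 CPM beside 8951 to 9905 in subgroups 1, 4 and 5 and 16679 in subgroup 3.

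Subgroup 3 (105 cells) stood apart. It was led by the heart muscle genes *Actc1* (827 against 11.9 CPM), *Myl3* (267 against 1.84), *Acta2* (553 against 9.91), *Myl7* (1404 against 33.9) and *Myl4* (569 against 14.4). Its median depth of 63302 UMIs lay above the 27205 to 43155.5 of the other subgroups. In it 85 cells (81.0%) were of high doublet score and 57 (54.3%) were mixed. Its junction and surface genes outside the rule summed to 2030 CPM, beside 3169 to 5170 elsewhere. All 10 cardiomyocyte markers summed to 3186 CPM, beside 50.4 to 148 elsewhere and 2814 in the other day 6 cells. Mesenchyme, neural and endoderm markers were also highest there, at 947, 76.2 and 149 CPM. *Acta2*, named above with the heart muscle genes, is also on the mesenchyme and mural list and makes 553 of the 947 CPM. How far joined cells account for this subgroup was not tested.

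Subgroup 4 (103 cells) was led by *Pdlim3* (133 against 19.8 CPM), *Slc1a3*, a glutamate transporter gene (102 against 15.5), *Mical2* (68.3 against 12.1), *Adgrg6* (63.1 against 12.03) and *Ednrb* (202 against 49.5). The 10 endocardial genes summed to 1509 CPM there, beside 419 to 1118 elsewhere. *Npr3* stood at 202 CPM, *Hapln1* at 657, *Nfatc1* at 119 and *Gata4* at 63.4, above the other 4 subgroups. The list was not uniform, since *Nrg1* (61.4 CPM) and *Tmem100* (121) were higher in subgroup 1 (81.0 and 151), *Edn1* (24.1) in subgroup 5 (28.7) and *Gata6* (125) in subgroup 3 (145). *Fn1* stood at 1261 CPM, *Tbx20* at 62.4, with 1.41 to 29.0 elsewhere, and *Hand2* at 141. *Cldn5* was at 134 CPM beside 476 and 461 in subgroups 1 and 2, and *Cav1* at 12.7 beside 81.5 and 147. The subgroup held 1 cell of high doublet score and 1 mixed cell.

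Subgroup 5 (70 cells) was led by genes of dividing cells, namely *Kif11*, a mitotic motor gene (136 against 18.1 CPM), *Mki67* (304 against 48.3), *Prc1*, of the spindle midzone (227 against 36.4), the histone gene *Hist1h1b* (367 against 63.3) and *Top2a* (718 against 138). In it *Hapln1* stood at 496 CPM, *Npr3* at 106, *Fn1* at 734 and *Cldn5* at 142. The globin gene *Hbb-y* was highest in this subgroup, at 23.8 CPM beside 0.201 to 9.75 elsewhere. Of its 70 cells, 11 (15.7%) were of high doublet score and 2 were mixed. *Mki67* stood at 13.5 and 15.3 CPM in subgroups 1 and 4, at 47.4 in subgroup 2 and at 80.8 in subgroup 3.

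**Figure D4:**
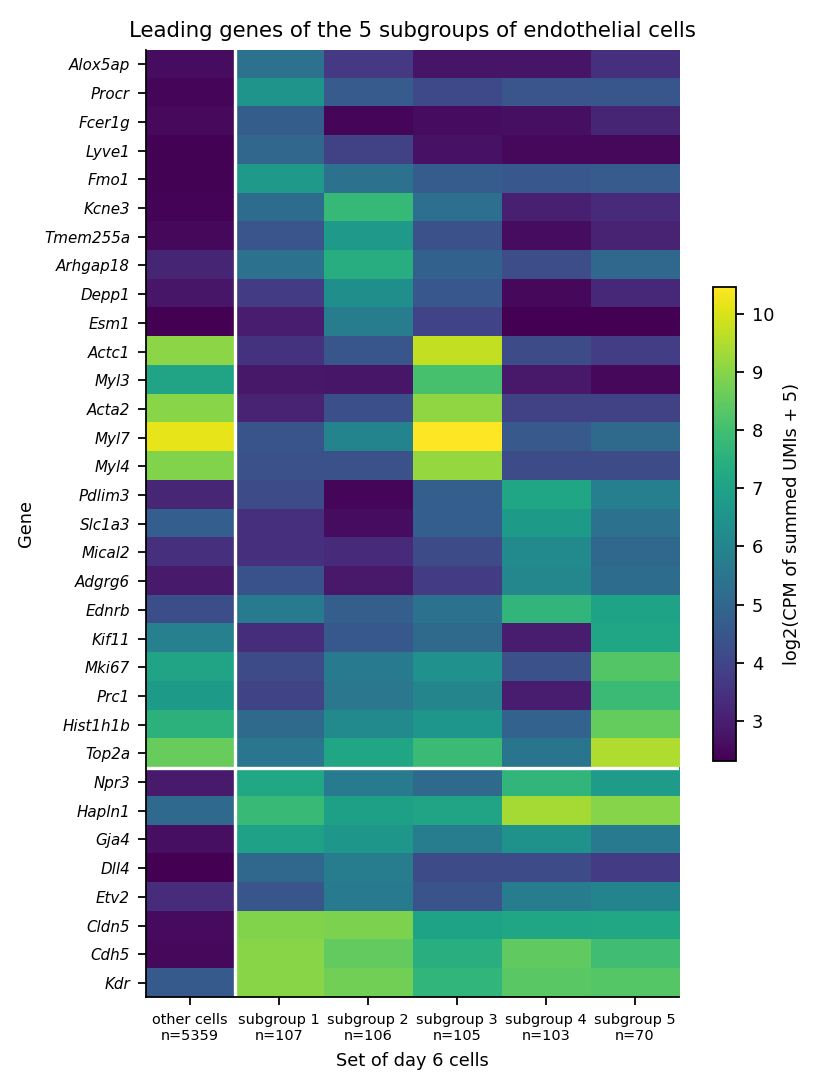
Level as log2 of CPM plus 5 of the leading genes of each subgroup, and of *Npr3*, *Hapln1*, *Gja4*, *Dll4*, *Etv2*, *Cldn5*, *Cdh5* and *Kdr* (rows), in the other day 6 cells and subgroups 1 to 5 (columns). Heart muscle genes stand out in subgroup 3 (*Actc1*, 827 CPM), *Kcne3* in subgroup 2 (213 CPM) and *Hapln1* in subgroup 4 (657 CPM).

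With coarser clustering (resolution 0.25) subgroups 1 and 4 fell together into 1 group of 206 cells, while subgroups 2 and 3 kept 96.2% and 99.0% of their cells in 1 group. At a finer resolution of 1 there were 9 groups, and subgroups 1 and 2 kept 57.0% and 49.1% of their cells together. Without the cells of high doublet score subgroup 2 kept 50.5% of its cells together, and subgroup 3 was left with 20 of 105 cells, of which 10 stayed together. When the 16 listed cell cycle genes were left out, 63 of the 70 cells of subgroup 5 still grouped together. Other genes of dividing cells that lead this subgroup, such as *Kif11*, *Prc1* and *Hist1h1b*, are not on that list and were not left out. The setting therefore cannot tell whether the subgroup rests on cell division alone.

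Genes were also counted together in single thinned cells. *Npr3* was found in 26.4% of the 121 cells with *Kcne3* (18.8 to 35.2) and in 55.4% of the 361 without it (50.1 to 60.6). *Kcne3* was found in 46.2% of cells with *Cd34* and 12.1% of those without, and in 73.1% of the 26 cells with *Esm1*. *Npr3* was found in 56.2% of cells with *Hapln1* and 26.2% of those without, and in 60.1% and 42.3% of cells with and without *Nfatc1*. *Gja4*, an arterial gene, was found in 48.5% of cells with *Dll4* and 32.5% of those without. For the venous gene *Aplnr* the same shares were 36.8% (27.6 to 46.7) and 35.4% (30.5 to 40.4), with intervals that overlap. All these genes took part in the clustering that formed the subgroups, so the shares are a description of the same cells.

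The same rule was applied to the other days. It found 4 cells at day 4, 207 at day 5 (2.79% of cells kept, 2.43 to 3.20), 491 at day 6 (8.39%) and 580 at day 11 (6.64%, 6.13 to 7.19). The rule itself bears on the day 5 number, because *Emcn* was at 0.524 CPM there. Before the *Pou5f1* limit, which left out 2 cells, 95, 56, 57 and 1 cells held 3, 4, 5 and 6 of the genes. Just outside the rule, 124 cells of day 5 held 2 of the genes, beside 94 at day 6 and 61 at day 11. With 1 library per day, day and library cannot be told apart. Cells of the rule had medians of 37630, 38714 and 21548.5 UMIs at days 5, 6 and 11, and the shares above are not matched for depth.

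Against the day 5 cells, 912 of 10002 genes were called higher at day 6 (9.12%) and 244 lower (2.44%). Against the day 11 cells, 228 of 10142 were higher (2.25%) and 412 lower (4.06%). The median log2 ratio of all genes was 0.15 and 0.08.

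The transcription factors did not share 1 course over the days. *Etv2* stood at 145 CPM at day 5, 32.9 at day 6 and 1.11 at day 11, and so was 4.41 times lower at day 6 than at day 5 (4.03 to 4.82) and 29.6 times higher than at day 11 (19.2 to 48.0). *Tal1* stood at 58.4, 24.1 and 13.7 CPM. *Sox17* and *Sox18* were highest at day 6, at 59.4, 144 and 61.5 CPM and at 45.3, 156 and 29.4 CPM. *Klf2* stood at 8.81, 141 and 112 CPM while in the other cells of the same days it was at 17.6, 7.06 and 17.2. Of the 20 factors, 10 were called higher and 2 lower than at day 5, and 4 higher and 0 lower than at day 11.

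The endocardial genes differed among themselves over the days. *Hapln1* stood at 30.6, 263 and 13.8 CPM and *Nrg1* at 11.3, 39.9 and 7.89 CPM in order of day. *Npr3* was at 0.839 CPM at day 5, 86.1 at day 6 (103 times higher, 52.0 to 238) and 70.6 at day 11, and *Tmem100* at 1.78, 73.2 and 58.6. Of the 10 genes, 8 were called higher than at day 5 and 0 lower, and 2 higher and 1 lower than at day 11. The lower one was *Cdh11*, at 11.4 CPM against 51.0, and *Gata4* stood at 26.5 against 28.2. *Hapln1* in the other cells was at 1.85, 29.1 and 3.52 CPM, also highest at day 6.

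Of 25 junction and surface genes, 17 were called higher than at day 5 and 0 lower, while 3 were higher and 3 lower than at day 11. *Clec14a* had 0 of 9539682 UMIs at day 5 and 65.8 CPM at day 6, at least 209 times higher, and 50.1 CPM at day 11. *Cav1* stood at 0.314, 63.5 and 214 CPM and *Icam2* at 33.9, 191 and 448, both called lower at day 6 than at day 11. *Plvap* was at 34.6, 325 and 128 CPM. *Kdr*, the main VEGF receptor gene, stood at 247, 336 and 259 CPM.

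Among sprouting genes 9 of 14 were called higher than at day 5, again counting *Tie1* of the rule, and 0 lower. Against day 11, 0 were higher and 5 lower. *Esm1* had 0 UMIs at day 5, 14.5 CPM at day 6 and 51.4 at day 11, and *Kcne3* stood at 7.76, 64.5 and 261 CPM. Of 10 vasoactive genes 5 were lower at day 6 than at day 11, among them *Ednrb* (69.9 against 274 CPM), the adrenomedullin gene *Adm* (23.9 against 71.0) and *Ramp3* (2.57 against 83.3). The matrix genes *Sparc* and *Fn1* went apart, at 616 against 1532 CPM and 477 against 201 CPM between day 6 and day 11.

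The genes furthest below day 11 were of several kinds. The fatty acid binding protein gene *Fabp4* stood at 0.349 CPM at day 6 and 527 at day 11 (1513 times, 767 to 3505) and *Gpihbp1*, which anchors lipoprotein lipase in capillaries, at 14.99 and 252 CPM. The neurotensin gene *Nts* stood at 1.66 and 118 CPM, the caveola gene *Cavin2* at 3.44 and 137, and *Ifi27* at 0.654 and 70.0. In the other cells *Ifi27* stood at 0.911 and 56.4 CPM and *Fabp4* at 0.0443 and 4.58. *Cox6a2*, a heart and muscle gene, stood at 11.1 and 326 CPM, at 0.291 and 4.35 without mixed cells, and at 1.62 and 139 without the cells of high doublet score. On the other side, *Prtg* stood at 76.2 CPM against 3.02 at day 11, the histone gene *Hist1h2ap* at 173 against 15.8, *Mogat2* at 68.3 against 4.18 and *Cck* at 32.6 against 0.318. Without mixed cells *Cck* was at 2.33 against 0.369 CPM, and without the cells of high doublet score at 1.43 against 0.358.

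The genes furthest above day 5 were mostly those of heart muscle. Mixed cells are defined by such genes, so leaving them out lowers these levels by construction, and the cells of high doublet score give the other comparison. *Actc1* stood at 0.419 CPM at day 5 and 286 at day 6, but at 0.473 and 8.15 without mixed cells. *Myl7* stood at 10.8 and 494 CPM and then at 10.7 and 19.6, *Acta2* at 1.68 and 192 and then at 1.89 and 11.3, *Myl4* at 3.14 and 201 and then at 3.20 and 13.2, and *Ttn* at 0.314 and 106 and then at 0.355 and 3.55. Without the cells of high doublet score the day 6 levels were 52.4 CPM for *Actc1*, 105 for *Myl7*, 43.0 for *Acta2*, 49.8 for *Myl4* and 27.4 for *Ttn*, still 2.58 to 3.44 above day 5 on the log2 scale of CPM plus 5. Neural cells of day 6, which should lack these genes, held *Myl7* at 392 CPM, *Acta2* at 135 and *Ttn* at 94.2, and endoderm cells at 88.3, 34.8 and 12.8. The 386 endothelial cells outside subgroup 3 held them at 33.9, 9.91 and 22.4 CPM. How far free RNA accounts for these levels was not tested. *Sparcl1*, a matrix protein gene, was different. It had 0 UMIs at day 5 and 108 CPM at day 6, at least 344 times higher, and 120 CPM without mixed cells. The genes furthest below day 5 were the metallothionein genes *Mt1* (416 and 40.0 CPM) and *Mt2* (167 and 1.48), the germline genes *Rbmxl2* (71.1 and 0.785) and *Sycp3* (78.3 and 2.14), the stress and cell cycle gene *Gadd45g* (344 and 29.3) and *Shisa4* (127 and 9.81). All 6 were also lower at day 6 than at day 5 in the other cells, *Mt2* at 364 and 8.18 CPM and *Sycp3* at 102 and 2.63.

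**Figure D5:**
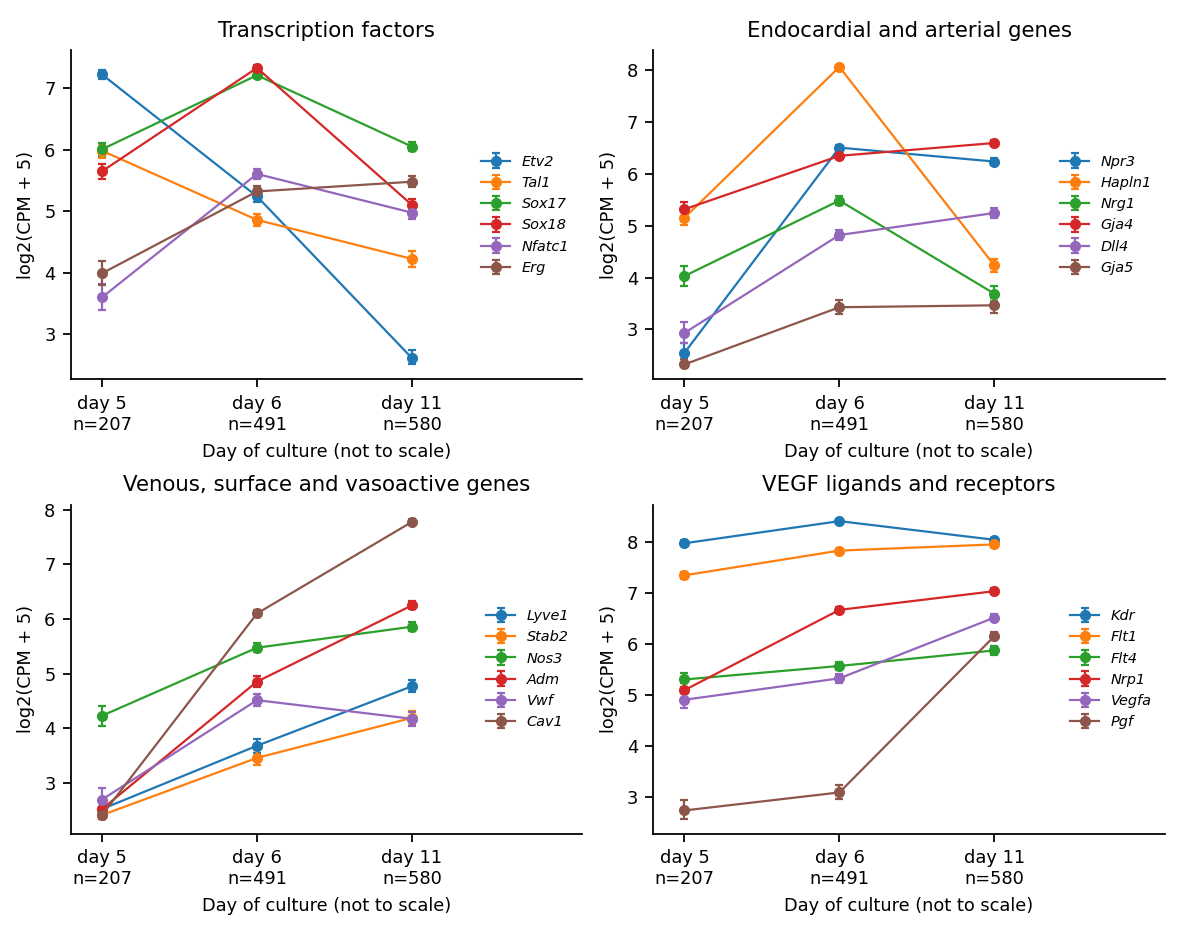
Level as log2 of CPM plus 5 in cells of the same rule at days 5, 6 and 11 (207, 491 and 580 cells; the day axis is not to scale), with exact Poisson intervals. The panels hold transcription factors, endocardial and arterial genes, venous, surface and vasoactive genes, and VEGF receptors and ligands. *Etv2* goes from 145 to 1.11 CPM, *Sox18* and *Hapln1* are highest at day 6 (156 and 263 CPM), and *Cav1* is highest at day 11 (214 CPM).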

How the data were processed

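scRNA-seq data were analysed for 1 library per day (days 4, 5, 6 and 11) of wild-type gastruloids. The authors deposited raw UMI count matrices of called cells, produced with Cell Ranger 3.1.0 per the submitters' notes (matrix header 6.0.1 at day 11) on build mm10. The deposited counts carried no normalization, and every CPM, percent and ratio was derived from them. Cells below 2000 UMIs or at 20% or more mitochondrial UMIs were left out. The labels give 1 replicate per day, so no test or p-value was computed. Depth set the precision: sums of UMIs have exact Poisson intervals, shares exact Clopper-Pearson intervals and ratios exact conditional binomial intervals (95%). Calls used 2-fold on CPM plus 5 among genes with 5 CPM in either set. A gene with 0 UMIs was given the limit of 3 UMIs over the set. Thinning drew 10000 UMIs per cell, leaving 482 endothelial and 5161 other cells. Neural, endoderm and cardiomyocyte reference cells were chosen by fixed marker counts. Doublet scores came from Scrublet, and the highest 8% were marked. Subgroups came from Leiden clustering (1500 variable genes, 20 principal components, 15 neighbours, resolution 0.5). Tools were Python 3.11.15, NumPy 2.4.6, SciPy 1.17.1, Scanpy 1.11.5, pandas 2.3.3 and igraph 0.11.9, and the scripts were tested on simulated data. Genes named are the 12 highest and 12 lowest ratios outside the rule, mitochondrial, ribosomal and unnamed genes, the 6 highest and lowest against days 5 and 11, the 5 leading genes per subgroup, and genes of the lists. Members and lists were chosen with earlier results of these data known. Alternatives changed the rule, the filters, doublets, mixed cells, depth, the pseudocount and the clustering.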

Additional observations from a re-analysis of the deposited data

Results flagged for a closer look

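*Pgf*, the gene of placental growth factor, differed in direction between days. At day 6 it stood at 3.53 CPM in the endothelial cells (2.80 to 4.39) and 19.3 CPM in the others, a log2 ratio of −1.51 on CPM plus 5. At day 11 the same rule gave 66.3 CPM (62.7 to 70.1) against 17.04 CPM, a log2 ratio of 1.69. At day 5 the levels were 1.68 and 7.52 CPM. Without mixed cells the endothelial levels were 2.79 CPM at day 6 and 68.7 CPM at day 11. With 1 library per day the difference between the days was not tested.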

How the results depend on the processing

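The share of day 6 cells that were endothelial (8.39%) was 10% with 2 of 6 genes needed (585 cells), 7.23% without high doublet scores (389), 7.28% without mixed cells (426) and 7.35% after thinning (415). The number of genes called higher (620) fell to 274 with a pseudocount of 20 CPM. The number called lower (350) was 225 with 2 of 6 genes, 717 without high doublet scores, 598 without mixed cells, 628 after thinning, 698 and 107 with pseudocounts of 1 and 20 CPM, 535 with the mean of each cell's CPM and 715 without subgroup 3. Against day 5, the higher count (912) was 1374 and 285 with pseudocounts of 1 and 20 CPM and 596 with a floor of 20 CPM, and the lower count (244) was 439, 78 and, after thinning, 435. Against day 11, the pseudocounts of 1 and 20 CPM gave 450 and 64 higher (228 in the report) and 641 and 139 lower (412). Clustering gave 9 subgroups at resolution 1. The median background share of 0.649% was 0% when 2 UMIs were needed. The other 47 values of these kinds are not all listed, and some moved more in proportion than the share of endothelial cells did. Among them, the number called higher was 843 with a pseudocount of 1 CPM and 455 with a floor of 20 CPM. It was 764 without subgroup 3 and 759 without high doublet scores. Of the values of single genes, 277 moved beyond a set limit, 251 did not, and 0 changed direction. That limit was the counting error for genes of the day 6 comparison. For genes of the comparisons between days it was a fixed difference on the log2 scale, which does not measure counting error. *Dppa5a* (log2 ratio −3.14) came to −0.47 after thinning, below 2-fold, and −1.41 without the *Pou5f1* limit. Leaving out subgroup 3, and mixed cells in the day comparisons, was chosen after seeing the data. No paired analysis was possible because each day has 1 library. Depth limits genes under 5 CPM in both sets, which were not called.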
